A study of Arabidopsis thaliana with 12 samples.

Results

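The genes described here were higher in emf1-2 seedlings than in wild type (WT) and stayed close to the WT level in clf28swn7 and ring1ab seedlings. They were chosen on the readout itself. Of 33602 genes in the expression table, 21227 had an FPKM (a fragment count scaled by exon length and library depth) of at least 1 in 3 or more of 12 libraries. For each, a difference from WT was taken as the mean of log2(FPKM + 1) over the 3 libraries of a mutant minus the mean over the 3 WT libraries. A total of 8751 genes had a difference smaller than 0.5 in size in both clf28swn7 and ring1ab, and the 150 of them with the largest emf1-2 difference are the members. Their expression in these 12 libraries is therefore given as a description, with no test.

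RNA-seq was carried out on whole Col-0 seedlings grown under long days and collected at 10 days after germination (DAG), with 3 biological replicates of emf1-2, clf28swn7, ring1ab and WT. The emf1-2 plants carry a mutant allele of EMF1, clf28swn7 plants are double mutants of CLF and SWN, and ring1ab plants are double mutants of RING1A and RING1B. The study describes emf1-2 and clf28swn7 as severe mutants that do not make the vegetative shoot, with a WT-like root in emf1-2 and a stunted root in clf28swn7, and ring1ab as a weak mutant. In a whole seedling, fewer cells of a type and less RNA per cell cannot be told apart. Estimated depth was between 1.90e+07 and 2.03e+07 fragments in emf1-2 libraries, 1.42e+07 and 1.50e+07 in clf28swn7, 1.89e+07 and 2.17e+07 in ring1ab, and 1.85e+07 and 2.03e+07 in WT, so low levels are coarser in clf28swn7.

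Polycomb group proteins keep developmental genes silent through histone modification. CLF and SWN are histone methyltransferases of Polycomb repressive complex 2 (PRC2), which places H3K27me3, and RING1A and RING1B are E3 ubiquitin ligases of PRC1, which acts on histone H2A. EMF1 is a plant-specific protein associated with PRC2, whose place in PRC1 is debated, and loss of EMF1 turns seedlings toward flower-like growth without a rosette.

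The mutated genes were looked at first. EMF1 itself had 47.0, 57.4 and 46.2 FPKM in emf1-2, against 7.31, 8.79 and 8.05 FPKM in WT, so its transcript was not lost and its level does not check the emf1-2 label. EMF1 averaged 54.0 FPKM in clf28swn7 too, with a difference of 2.61 beside 2.5 in emf1-2, and is therefore no member. CLF averaged 0.301 ± 0.18 FPKM in clf28swn7 and 8.90 ± 0.82 FPKM in WT (SD, n = 3 each), and SWN averaged 3.59 ± 0.22 and 16.4 ± 1.0 FPKM. In the libraries labelled ring1ab, RING1B averaged 0.554 ± 0.27 FPKM against 7.07 ± 0.92 FPKM in WT. RING1A went against a loss of transcript there, at 188 ± 11 FPKM against 4.75 ± 0.78 FPKM in WT, so the bound set on ring1ab refers to the libraries labelled so.

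A pair of members, MIR776 and GulLO1, was listed above 0 in emf1-2 libraries alone, and both passed the filter on low values only through them. Passing it only through emf1-2 was not particular to this pair, since it held for other members, those ranked 1 to 9 among them. MIR776 (AT1G61732), a microRNA precursor gene on the plus strand of chromosome 1, was listed at 3.14, 2.93 and 4.34 FPKM in emf1-2 and at 0 in each of the 9 other libraries. Bases 2 to 8 are shown in capitals in the mature sequence from RefSeq (TAIR10.1, chr1:22795699-22795719), and its pairing with targets was not looked at. RNA-seq of this kind measured the precursor transcript, not the mature microRNA, and a level of 3 FPKM on a precursor of 118 bases rests on few fragments.
miR776: uCUAAGUCuucuauugauguu

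GulLO1 (AT1G32300, chr1:11651327-11653380), annotated as a D-arabinono-1,4-lactone oxidase, had 1.53, 2.30 and 1.56 FPKM in emf1-2, over an exon length of 1818 bases. Members listed at 0 in all 3 WT libraries numbered 18.

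A group of members with sequences worth seeing is the DUF295 family, plant genes of unknown function. The family gave 5 of the 150 members, or 3.33%, and 19 of the tested genes, or 0.0895%. All 5 were under 1 FPKM in every library outside emf1-2, so they passed the filter only through emf1-2. Of the 19, 9 had an emf1-2 difference of at least 1, and the median was 0.92. All tested genes had a median of 0.19, and 13.7% were called higher (at least 1 and p under 0.05 by limma). The family's share, count and median include the 5 that the filter let in through emf1-2, and are a description only. Some of the 9 were no members because other mutants were higher too, such as AT1G30160 on chromosome 1, with 3.53 in emf1-2 and 3.01 in clf28swn7. All 5 members of the family lay on chromosome 5, as did 10 of the 19 tested DUF295 genes. The 5 were within a stretch of 0.948 Mb between AT5G52940 (chr5:21472103-21473602) and AT5G55270 (chr5:22419147-22420518). The start windows of 3 of them held the telobox AAACCCTA, a short element known from Polycomb target promoters, on the other strand. They are shown as 30 bases around the match, read along the gene's strand, with the match in capitals as TAGGGTTT, at chr5:21598790-21598819, chr5:21601473-21601502 and chr5:22419160-22419189.
AT5G53230: aatttctcaatTAGGGTTTttttctttctt
AT5G53240: aactcatcaatTAGGGTTTtctgtacaatc
AT5G55270: atttcttcattTAGGGTTTtttctttaatc

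The members were not marked by this element as a whole. In the window from 250 bases before to 50 bases after the annotated start, the telobox was found on either strand in 7 members (4.73% of the protein-coding ones), in 5.55% of tested protein-coding genes and in 6.22% of all 27444 protein-coding genes. DUF295 genes thus made up 3 of the 7 members with a match. Of these, AT5G53230 and AT5G53240 are neighbours that share 78.9% of aligned coding bases, so their matches are not independent. In AT5G53240 and AT5G55270 the match lay 3 and 24 bases after the annotated start. The share in the other tested DUF295 genes is not given here. The GAGA box GAGAGA stood in 27.7% of members and 28.6% of tested genes. Shares for the TATA box TATAAA were 58.1% and 51.9%, for the G-box CACGTG 4.73% and 8.93%, and for the CArG box, bound by MADS proteins, 2.03% and 3.19%.

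The W-box, the element bound by WRKY factors, was added to the search after the members had been seen. Its form TTGACC stood in 34 members (23.0% of the protein-coding ones), in 14.4% of tested genes and in 14.2% of all genes, and the form TTGACT in 24.3%, 22.0% and 21.8%. The capital letters below mark TTGACC in the 250 bases before the start of AT2G18193 (chr2:7919346-7919595), read along the minus strand. It is shown because AT2G18193 ranked 11 among the members and had a clear level in every library.
AT2G18193: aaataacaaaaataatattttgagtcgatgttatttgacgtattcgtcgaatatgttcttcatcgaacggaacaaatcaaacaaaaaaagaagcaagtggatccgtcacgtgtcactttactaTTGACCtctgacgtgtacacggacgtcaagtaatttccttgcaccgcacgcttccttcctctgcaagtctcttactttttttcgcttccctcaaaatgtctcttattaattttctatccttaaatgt

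The levels of the members were modest in emf1-2 and low elsewhere. The median over members of the mean FPKM was 9.03 in emf1-2, 1.04 in clf28swn7, 0.943 in ring1ab and 0.820 in WT. Mean FPKM in emf1-2 was under 5 for 53 members and at least 100 for 10. The median difference of the members was 1.67 in emf1-2, 0.16 in clf28swn7 and 0.04 in ring1ab, beside 0.19, 0.07 and 0.04 over all tested genes. All tested genes thus shifted by a median of 0.19 in emf1-2 on the deposited scale, and by 0.02 after median-of-ratios scaling. Relative to that shift the members' median was 1.48 and their lowest difference 1.15.

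The genotypes hardly overlapped, which the rule largely fixes. All 3 emf1-2 libraries lay above all 9 other libraries in 147 members, and in 21.2% of all tested genes. The exceptions were AT3G21352, PAO2 and AT4G38560. Against WT alone, 149 members were separated, as were 46.6% of tested genes. A call by limma (p under 0.05 and a 2-fold or larger change on the same scale) is nearly fixed for members by the rule, so nothing is read from the 149 members called higher in emf1-2 and the 0 called in clf28swn7 or ring1ab. Over all tested genes 13.7% were called higher in emf1-2, 15.1% in clf28swn7 and 7.16% in ring1ab. Being within the bound did not mean being at the WT level. All 3 clf28swn7 libraries lay above all 3 WT libraries in 47 members, and all 3 ring1ab libraries in 27. Both were smaller shares than the 42.3% and 29.4% over all tested genes, which the bound did not restrict. Such separation was thus less frequent among members than among tested genes.

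**Figure D1:**
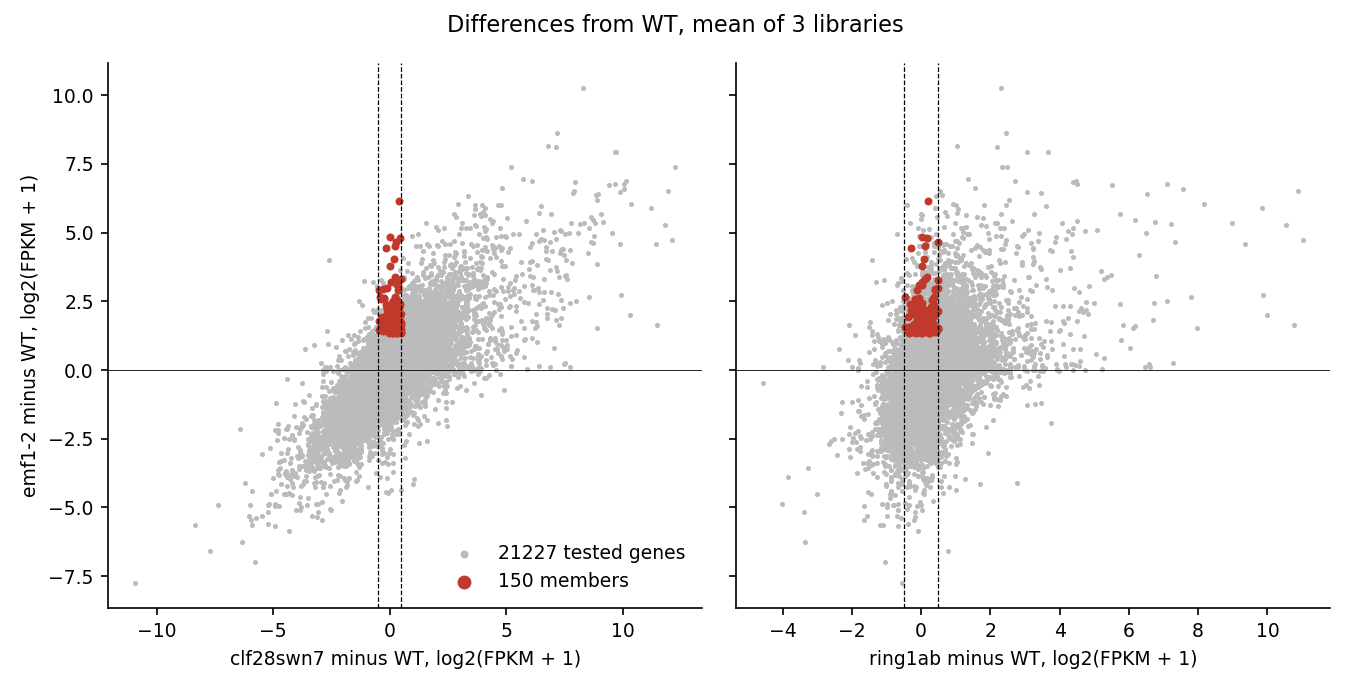
Difference from WT in mean log2(FPKM + 1), for emf1-2 on the vertical axes and for clf28swn7 (left) or ring1ab (right) on the horizontal axes. Grey points are the 21227 tested genes, red points the 150 members, and dashed lines the bound of 0.5 on either side of 0. The members fill the narrow band above 1.34 between the dashed lines.

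How firmly a gene can be called close to WT depends on its level. In 71 members the mean WT FPKM was at least 1. Among these the ratio of mean FPKM over WT ran between 2.54 and 11.6 in emf1-2 (median 3.53), between 0.677 and 1.70 in clf28swn7 (median 1.13), and between 0.609 and 1.58 in ring1ab (median 1.05). In the other 79 members the added 1 in log2(FPKM + 1) compresses differences among low values. Of these, 37 had a mean FPKM in clf28swn7 more than 2 times that in WT, or above 0 with WT listed at 0, and 30 had one in ring1ab. With 0.1 in place of 1 added to the FPKM, 60 of those 79 and 15 of the 71 were no longer within 0.5 of WT in both mutants.

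The largest differences belonged to genes nearly silent in WT. Members ranked 1 to 9 were under 1 FPKM in every library outside emf1-2, so they passed the filter only through emf1-2. AT1G16950, an uncharacterized gene of 1 exon (chr1:5795879-5796666), had 45.2, 83.1 and 89.0 FPKM in emf1-2, against 0.637, 0.244 and 0.127 FPKM in clf28swn7 and 0 in all 3 WT libraries. Its difference of 6.14 was the largest of all genes within the bound. AT3G12000 (chr3:3818046-3819642) is annotated as related to the S-locus protein SLR1, known from the stigma of Brassica. It had 27.0, 28.7 and 28.1 FPKM in emf1-2, was listed at 0 in all clf28swn7 and WT libraries, and reached 0.0682 FPKM in 1 ring1ab library. Its 3 emf1-2 libraries lay close together, unlike those of AT1G16950.

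CES (AT1G25330, chr1:8880267-8882100) encodes the bHLH factor CESTA, known in brassinosteroid signalling. The gene had 20.1, 34.6 and 28.8 FPKM in emf1-2, against 0.244, 0.533 and 0.376 FPKM in clf28swn7, and was listed at 0 in all WT libraries. Its clf28swn7 difference of 0.46 was just inside the bound. CES had the largest difference among the members annotated as transcription factors. PLP4 (AT4G37050, chr4:17457135-17459770), a patatin-like lipid hydrolase, had 20.4, 20.1 and 17.1 FPKM in emf1-2 and 0.167, 0.149 and 0.379 FPKM in WT. The serine carboxypeptidase-like gene scpl47 (AT5G22980, chr5:7688027-7690652) had 12.2, 13.6 and 13.2 FPKM in emf1-2 and was listed at 0 in the WT and clf28swn7 libraries. In both genes the emf1-2 libraries stood well clear of all the others.

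AT4G05370, ranked 4, has no entry in the reference annotation used here and is given no role; it had 17.5, 46.4 and 24.6 FPKM in emf1-2 and 0.241, 0.110 and 0 FPKM in WT. AT4G05380, ranked 12, encodes a P-loop nucleoside triphosphate hydrolase and had 6.11, 11.2 and 8.13 FPKM in emf1-2 with 0 in all WT libraries. Replicate 2 was the highest emf1-2 library for both. AT1G27565, an uncharacterized gene, had 21.0, 25.3 and 22.4 FPKM in emf1-2 and at most 0.0960 FPKM in WT. AT3G28510, another P-loop hydrolase, had 21.6, 23.4 and 38.6 FPKM in emf1-2 and 0.331, 0.268 and 0.294 FPKM in WT.

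**Figure D2:**
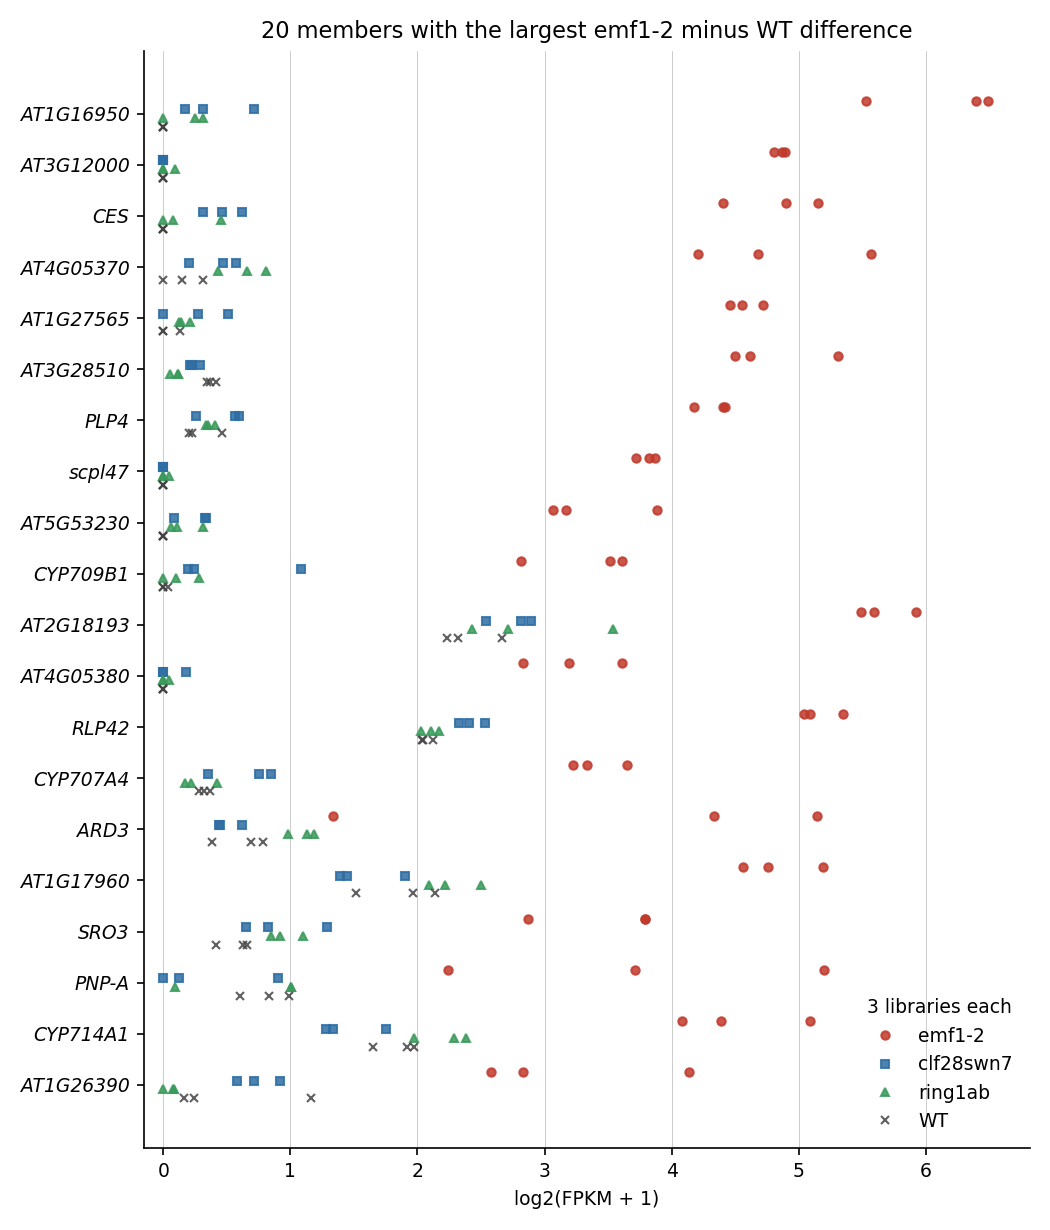
log2(FPKM + 1) in each library for the 20 members with the largest emf1-2 difference, ranked downward. Red circles are emf1-2, blue squares clf28swn7, green triangles ring1ab and black crosses WT, with 3 libraries each. Red points stand to the right of all others in every row, closest in ARD3, where replicate 1 of emf1-2 was at 1.52 FPKM.

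Several of the leading members already had a clear level in WT. RLP42 (AT3G25020), a receptor-like protein that senses fungal polygalacturonases, had 31.9, 39.7 and 33.0 FPKM in emf1-2 and 3.12, 3.09 and 3.35 FPKM in WT, a ratio of means of 10.9. AT1G17960, annotated as a threonyl-tRNA synthetase, had 22.5, 35.5 and 26.0 FPKM in emf1-2 and 1.86, 3.41 and 2.91 FPKM in WT. Neither gene overlapped between emf1-2 and any other genotype. SRO3 (AT1G70440), a relative of the stress regulator RCD1, had 6.30, 12.8 and 12.8 FPKM in emf1-2 and between 0.336 and 0.577 FPKM in WT.

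Cytochrome P450 genes numbered 6 (4% of members, 0.810% of tested genes), of which 3 have a known role in hormone metabolism. The median emf1-2 difference over the 172 tested P450 genes was 0.09. CYP707A4 (AT3G19270), an abscisic acid 8'-hydroxylase that breaks the hormone down, had 11.6, 9.08 and 8.34 FPKM in emf1-2, against 0.216, 0.292 and 0.251 FPKM in WT. CYP714A1 (AT5G24910), which belongs to a subfamily that inactivates gibberellins, had 15.9, 33.0 and 19.98 FPKM in emf1-2, against 2.14, 2.93 and 2.79 FPKM in WT. BR6OX2 (AT3G30180), the oxidase of the last steps of brassinolide synthesis, was high throughout, with 44.8, 56.6 and 51.7 FPKM in emf1-2 and 19.3, 17.4 and 19.8 FPKM in WT. These genes had differences of 3.08, 2.67 and 1.39, so both hormone breakdown genes and a synthesis gene were higher in emf1-2. CYP709B1 had 11.2, 10.4 and 6.02 FPKM in emf1-2 and at most 0.0255 FPKM in WT, although replicate 1 of clf28swn7 reached 1.12 FPKM. The remaining P450 members, AT3G61035 and CYP705A2, had differences of 2.06 and 1.34.

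Among hormone genes outside that family, picked after their values were seen, IAR3 (AT1G51760), which frees auxin from amino acid conjugates, had 82.1, 85.5 and 75.3 FPKM in emf1-2 and 24.9, 28.2 and 25.4 FPKM in WT. BSMT1 (AT3G11480), which makes methyl salicylate and methyl benzoate, had 1.43, 1.8 and 1.67 FPKM in emf1-2 and was listed at 0 in all ring1ab and WT libraries. IAR3 was within 0.1 of the WT level in both other mutants.

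Transcription factors were counted by a partial set of family words in the annotated product. Both shares therefore miss factors whose annotation names none of these words, and their difference only describes this count. By these words they made up 19 of the 150 members (12.7%) and 3.76% of tested genes. By family they were 4 WRKY genes, 4 NAC genes, 3 MYB genes, 3 bHLH genes, a pair of B3 genes, and BLH1, ARF8 and DREB2C. Family shares among members and tested genes were 2.67% and 0.231% for WRKY, 2.67% and 0.325% for NAC, 2.00% and 0.598% for MYB, and 2.00% and 0.452% for bHLH. The families were not higher as a whole to the same degree. The median emf1-2 difference over tested genes was 1.04 for 49 WRKY genes and 0.80 for 69 NAC genes, but 0.09 for 127 MYB genes and 0.10 for 96 bHLH genes, beside 0.19 for all tested genes.

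BLH1 (AT2G35940), a BEL1-like homeodomain protein of the class that pairs with KNOX proteins, had 96.3, 102 and 95.0 FPKM in emf1-2, against 33.1, 31.7 and 31.5 FPKM in clf28swn7 and 25, 27.7 and 30.6 FPKM in WT. ARF8 (AT5G37020), an auxin response factor needed for flower maturation, had 31.4, 30.4 and 31.3 FPKM in emf1-2 and 9.13, 9.94 and 10.3 FPKM in WT. Both were expressed in every library and tight among replicates, so their differences of 1.79 and 1.57 do not rest on low values. UNE12 (AT4G02590), a bHLH factor, had 52.0, 52.1 and 58.7 FPKM in emf1-2, while WT was spread, at 21.3, 22.7 and 11 FPKM.

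NAC factors include regulators of ageing and cell death. NAC016 (AT1G34180), which promotes leaf senescence, had 8.00, 9.57 and 8.91 FPKM in emf1-2 and 1.40, 1.51 and 1.32 FPKM in WT. ANAC087 (AT5G18270), known from cell death in the root cap, had 23.3, 36.2 and 36.6 FPKM in emf1-2 and 8.18, 12.6 and 12.6 FPKM in WT. NAC3 (AT3G15500) had 13.5, 17.2 and 12.6 FPKM in emf1-2 and 3.63, 4.85 and 3.71 FPKM in WT. NAC085 was at or near 0 outside emf1-2, with 1.31, 1.86 and 2.59 FPKM in emf1-2 and at most 0.0503 FPKM in WT. Root cap markers summed to between 1.38 and 2.00 FPKM in emf1-2 and between 2.21 and 3.71 FPKM in WT, and of these SMB averaged 1.24 FPKM in emf1-2 and 1.16 FPKM in WT, and BRN1 0.373 and 1.8 FPKM. Their part in the level of ANAC087 was not tested.

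WRKY factors act largely in defence and senescence. WRKY54 (AT2G40750) had 4.77, 5.10 and 5.79 FPKM in emf1-2 and 0.704, 0.791 and 0.566 FPKM in WT, with little spread. WRKY50 (AT5G26170) had 7.08, 12.7 and 16.9 FPKM in emf1-2 and 2.17, 3.99 and 3.82 FPKM in WT. WRKY58 had 2.57, 3.98 and 3.94 FPKM in emf1-2, with a clf28swn7 difference of 0.44, and WRKY62 had 1.01, 1.60 and 4.63 FPKM. Replicate 3 was thus the highest emf1-2 library in WRKY54, WRKY50 and WRKY62.

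The MYB members were MYB31 (AT1G74650), with 19.6, 22.4 and 21.7 FPKM in emf1-2 and 2.91, 3.25 and 3.76 FPKM in WT, MYB50 and MYB57. MYB57 (AT3G01530), which acts with related factors in stamen development under jasmonate, had 1.40, 2.62 and 1.08 FPKM in emf1-2 and at most 0.0656 FPKM in WT. MYB50 had 8.96, 11.2 and 9.89 FPKM in emf1-2 and 2.51, 3.50 and 3.69 FPKM in WT. The B3 genes AT5G60142 and AT5G57720 and the bHLH gene AT4G28800 had differences of 1.97, 1.64 and 1.63. DREB2C, of the AP2/ERF class of stress regulators, had 8.57, 9.58 and 12.3 FPKM in emf1-2 and between 2.72 and 3.15 FPKM in WT.

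**Figure D3:**
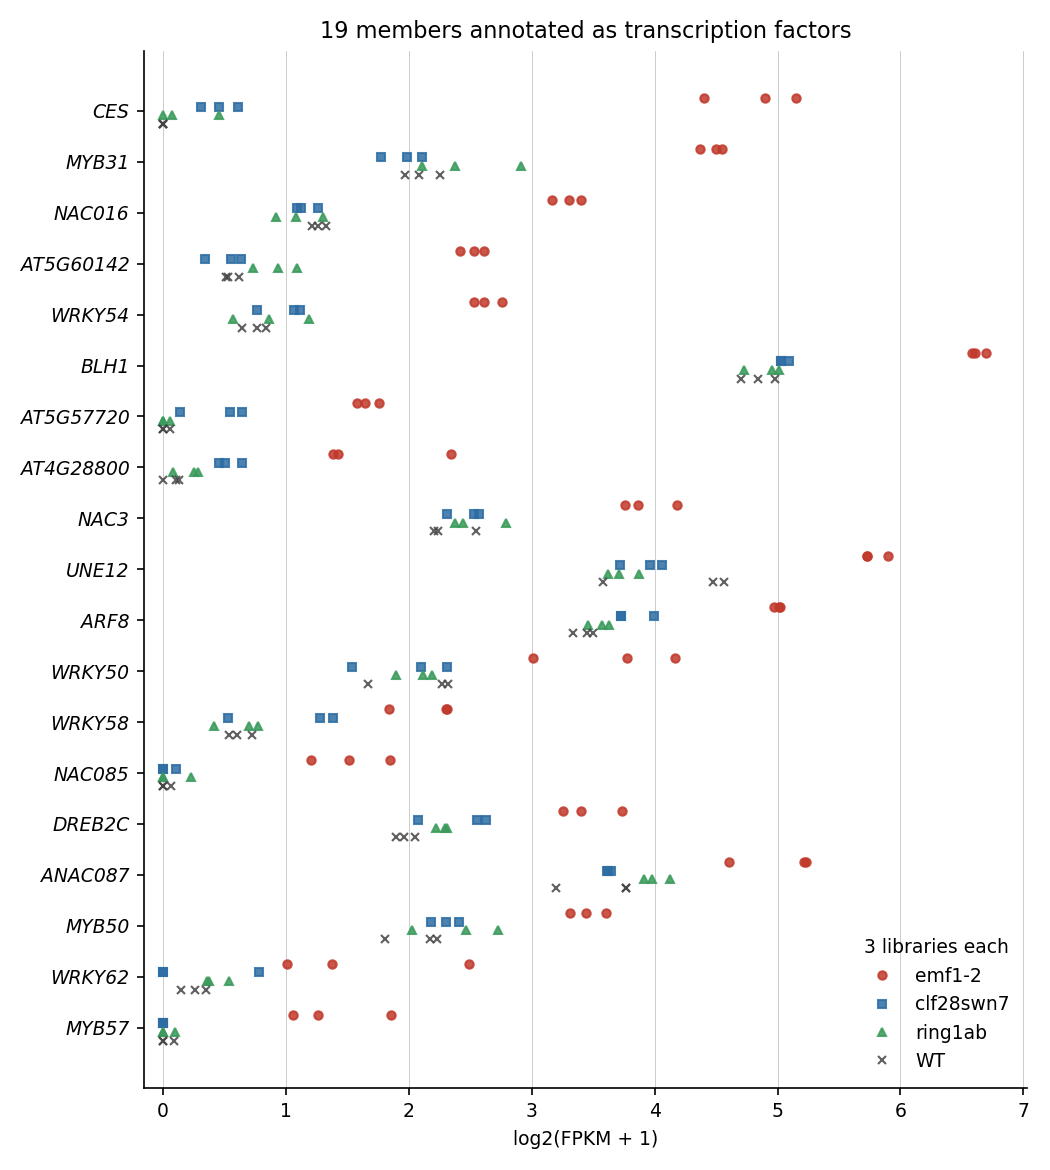
log2(FPKM + 1) in each library for the 19 members annotated as transcription factors, in order of their emf1-2 difference. Symbols are red circles for emf1-2, blue squares for clf28swn7, green triangles for ring1ab and black crosses for WT, 3 libraries each. BLH1 and UNE12 lie at high levels in all genotypes, whereas CES, NAC085 and MYB57 are near 0 outside emf1-2.

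Receptor-like proteins and kinases numbered 7 (4.67% of members, 0.994% of tested genes), namely RLP42, CRK6, AT1G35710, RLP22, AT1G60630, AT2G36570 and HAE. HAE (AT4G28490), the receptor kinase of floral organ abscission, had 15.8, 19.2 and 16.1 FPKM in emf1-2 and 5.56, 5.85 and 5.86 FPKM in WT. Its ring1ab libraries, at 8.00, 7.37 and 7.52 FPKM, also lay above WT. ADPG1 (AT3G57510), a polygalacturonase that acts in abscission and fruit opening, had 1.73, 2.46 and 1.69 FPKM in emf1-2. It had 0.322, 0.153 and 0.174 FPKM in clf28swn7 and was listed at 0 in all ring1ab and WT libraries. AT2G36570 had 33.0, 25.5 and 25.7 FPKM in emf1-2 and between 7.66 and 10.5 FPKM in WT, with differences of 0.41 in clf28swn7 and 0.42 in ring1ab. RLP22 had 5.76, 7.85 and 5.14 FPKM in emf1-2 and 1.24, 2.19 and 1.18 FPKM in WT. Flower organ markers (AP3, PI and AG) summed to between 590 and 674 FPKM in emf1-2, 277 and 282 in clf28swn7, 11.4 and 14.7 in ring1ab and 1.1 and 1.49 in WT. Their part in the levels of HAE and ADPG1 was not tested.

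Other families with 3 or more members were P-loop hydrolases (5 members, 3.33% against 0.787% of tested genes), F-box proteins (4, 2.67% against 0.956%), aspartyl proteases (3, 2.00% against 0.236%), and genes of the NDR1/HIN1-like or hydroxyproline-rich LEA class (3, 2.00% against 0.443%). The family words were chosen after the members had been seen, and a share above that of tested genes is a description of this list. The aspartyl protease AT4G16563 had 182, 208 and 169 FPKM in emf1-2 and 29.5, 41.2 and 47.6 FPKM in WT. Its differences were 0.37 in clf28swn7 and 0.41 in ring1ab. The protease AT5G10770 had 102, 126 and 101 FPKM in emf1-2 and 26.5, 36.0 and 40.2 FPKM in WT. NHL1 (AT3G11660), of the NDR1/HIN1-like class, had 149, 156 and 145 FPKM in emf1-2 and 47.1, 53.6 and 60.1 FPKM in WT. These were members with a strong level in all genotypes.

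**Figure D4:**
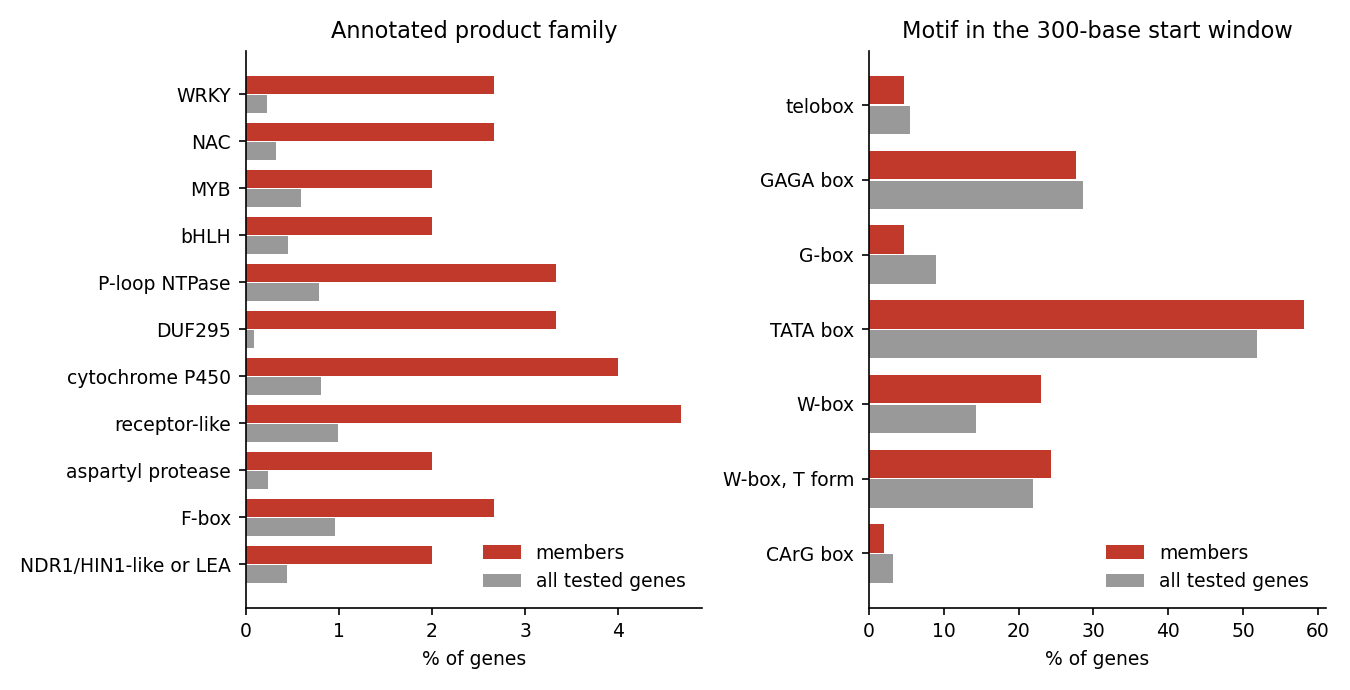
Percentage of the 150 members (red, upper bars) and of all tested genes (grey, lower bars) in annotated product families with 3 or more members (left), and percentage of protein-coding members and of 20427 tested protein-coding genes with each motif in the window from 250 bases before to 50 bases after the start (right). W-box is TTGACC and its T form TTGACT. DUF295 genes are 3.33% of members and 0.0895% of tested genes, and telobox shares are 4.73% and 5.55%.

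The most abundant members made up a further set. DJ1A (AT3G14990), of the DJ-1 family of stress-protective proteins, had 776, 781 and 687 FPKM in emf1-2, against 368, 377 and 347 FPKM in clf28swn7 and 248, 269 and 268 FPKM in WT. AT5G65660, a hydroxyproline-rich glycoprotein gene, had 526, 582 and 476 FPKM in emf1-2 and 185, 212 and 226 FPKM in WT. AT1G28580, a GDSL lipase, had 220, 253 and 292 FPKM in emf1-2 and 87.6, 103 and 95.6 FPKM in WT, and AT3G47800, annotated as similar to galactose mutarotase, had 258, 239 and 233 FPKM in emf1-2 and 90.1, 90.1 and 88.3 FPKM in WT. With AT4G16563, these were the 5 members with the highest mean in emf1-2, and each had between 2.54 and 4.73 times the WT mean.

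A further 5 members, with roles in housekeeping and stress physiology, were picked after their values were seen, and their means in emf1-2 were between 3.07 and 23.5 times those in WT. TRE1 (AT4G24040), the trehalase, had 23.7, 32.6 and 27.9 FPKM in emf1-2 and 5.23, 6.05 and 6.61 FPKM in WT. AOX1A (AT3G22370), the mitochondrial alternative oxidase, had 35.2, 56.5 and 52.1 FPKM in emf1-2 and 15.3, 14.6 and 17 FPKM in WT, with replicate 1 of ring1ab at 26.5 FPKM. KRP2 (AT3G50630), an inhibitor of cyclin-dependent kinases, had 39.0, 44.2 and 53.9 FPKM in emf1-2 and 13.2, 15 and 13.1 FPKM in WT. AT3G27630, an SMR3-like inhibitor of the same kinases, had 2.86, 10.4 and 7.26 FPKM in emf1-2 and 0.647, 1.24 and 1.45 FPKM in WT. BIP3 (AT1G09080), an endoplasmic reticulum chaperone of the HSP70 family, had 4.80, 5.86 and 10.5 FPKM in emf1-2 and at most 0.484 FPKM in WT.

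Genes named for reproductive cells were present at low levels. GEX1 (AT5G55490), first found in gametes, had 1.85, 3.75 and 2.60 FPKM in emf1-2 and 0.293, 0.240 and 0.25 FPKM in WT. VDD (AT5G18000), a B3-class gene that acts in the embryo sac and is not counted among the 19 transcription factors because its annotation names no family, had 2.80, 2.19 and 1.99 FPKM in emf1-2 and at most 0.0419 FPKM in WT, with a clf28swn7 difference of 0.48. Of the tapetum markers, MS1 and ATA7 were listed at 0 in all 12 libraries, and the summed tapetum level was at most 0.161 FPKM in emf1-2 and 0.288 FPKM in WT.

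Members next to each other on the chromosome formed 6 pairs, which held 12 of the 149 members placed on the annotation (8.05%). With any tested gene that reached the lowest member's difference counted as a neighbour, 34 members (22.8%) lay beside such a gene, as did 20.6% of the 1836 genes of that kind. The P-loop hydrolase genes AT2G18190 and AT2G18193, the second with its upstream sequence printed above, share 86.2% of aligned coding bases. AT2G18193 had 43.9, 59.6 and 47.2 FPKM in emf1-2, against 6.43, 6.03 and 4.82 FPKM in clf28swn7 and 3.70, 3.99 and 5.33 FPKM in WT. AT2G18190 had 2.96, 5.23 and 4.48 FPKM in emf1-2 and was listed at 0 in all clf28swn7 libraries and in 2 of 3 WT libraries. How the counting split reads between such copies is not given in the sources used here, so the lower level of AT2G18190 is uncertain.

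PLP5 (AT4G37060), beside PLP4 and 66.6% identical to it in aligned coding bases, had 1.89, 2.21 and 1.78 FPKM in emf1-2 and at most 0.0700 FPKM in WT. AT4G37030, near PLP4, is also a member, at 6.87 FPKM in emf1-2 and 1.16 FPKM in WT, with MAP1D between it and PLP4. The DUF295 neighbours AT5G53230 and AT5G53240, 78.9% identical, had 7.37, 13.8 and 8.00 FPKM and 2.01, 3.20 and 1.77 FPKM in emf1-2, with the WT libraries at 0 for the first and at most 0.0429 FPKM for the second. AGP22, the following gene, averaged 0.974 FPKM in emf1-2 and 42.0 FPKM in WT.

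Pairs without similar sequence were AT1G24145 and AT1G24147, 158 bases apart, and ATG8B and AT4G04630. AT1G24145 had 6.21, 12.6 and 11.7 FPKM in emf1-2 and 0.934, 1.47 and 1.17 FPKM in WT, and AT1G24147 had 2.1, 3.86 and 7.96 FPKM in emf1-2 and 0.643, 0.551 and 0.268 FPKM in WT. ATG8B (AT4G04620), a ubiquitin-like protein of autophagosomes, had 136, 185 and 143 FPKM in emf1-2 and 50.1, 49.7 and 52.8 FPKM in WT. AT4G04630, a senescence regulator by annotation, had 25.4, 25.6 and 27.1 FPKM in emf1-2 and 7.36, 7.49 and 7.08 FPKM in WT. AT2G03230 lies inside AT2G03240 on the opposite strand, and without a stated strand setting their reads cannot be told apart; they averaged 3.04 and 35.5 FPKM in emf1-2 and 0.276 and 11.6 FPKM in WT.

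The members were spread over the genome, with between 16.1% and 22.8% of them on each of the 5 chromosomes. Genes of 1 exon were 21.5% of members and 15.7% of tested genes, and the median exon number was 4 and 5. Median exon length was 1691 bases in members and 1741 bases in tested genes. These features were not used by the rule.

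Among themselves the emf1-2 libraries did not give the members the same level. Replicate 1 was the lowest of the 3 in 100 members, while it was the lowest in 35.9% of tested genes. Replicate 2 was the highest in 77 members and in 30.3% of tested genes. The median SD of log2(FPKM + 1) over emf1-2 libraries was 0.23 for members and 0.13 for all tested genes, and members had 0.10 over WT libraries. In 28 members this SD over emf1-2 libraries was above 0.5, and of these replicate 3 was the highest in 21 and replicate 1 the lowest in 23. Over all tested genes replicate 3 was the highest in 32.1%. Replicate 1 thus ran low and, among the variable members, replicate 3 ran high.

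PNP-A (AT2G18660), a natriuretic peptide secreted by plant cells, had 3.73, 12.1 and 35.6 FPKM in emf1-2 and between 0.520 and 0.990 FPKM in WT. NUDT6 (AT2G04450), a nudix hydrolase, had 3.50, 11.7 and 13.8 FPKM in emf1-2 and between 1.22 and 1.70 FPKM in WT. CRK6 (AT4G23140), a cysteine-rich receptor-like kinase, had 1.55, 4.68 and 7.87 FPKM, and AT3G47480, an EF-hand protein, had 7.20, 15.7 and 36.4 FPKM in emf1-2. In each of them replicate 1 was the lowest emf1-2 library and replicate 3 the highest, yet all 3 stayed above WT. AT1G26390, a berberine bridge-type oxidase, had 6.11, 4.96 and 16.6 FPKM in emf1-2.

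In a few members 1 library decided the size of the difference. ARD3 (AT2G26400), an acireductone dioxygenase of methionine salvage, had 1.52, 19.2 and 34.4 FPKM in emf1-2 and 0.301, 0.727 and 0.612 FPKM in WT, and its difference of 2.99 was between 2.22 and 4.12 when an emf1-2 replicate was left out. MIOX4 (AT4G26260), a myo-inositol oxygenase, had 15.9, 1.14 and 4.03 FPKM in emf1-2 and 0.828, 0.670 and 1.03 FPKM in WT. Its difference of 1.63 was 0.84 without replicate 1. PAO2 (AT2G43020), a polyamine oxidase, had 9.71, 0.00124 and 11.1 FPKM in emf1-2 and 1.02, 1.26 and 0.219 FPKM in WT, so that replicate 2 was below all WT libraries. Its difference of 1.51 was 0.97 without replicate 1, 2.68 without replicate 2 and 0.88 without replicate 3. PAO2 was uneven in the other mutants too, with 0.574, 0.00222 and 1.70 FPKM in clf28swn7 and 3.93, 0.184 and 1.34 FPKM in ring1ab. Replicate 2 was the lowest library in both, so the closeness of PAO2 to WT there is uncertain as well.

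**Figure D5:**
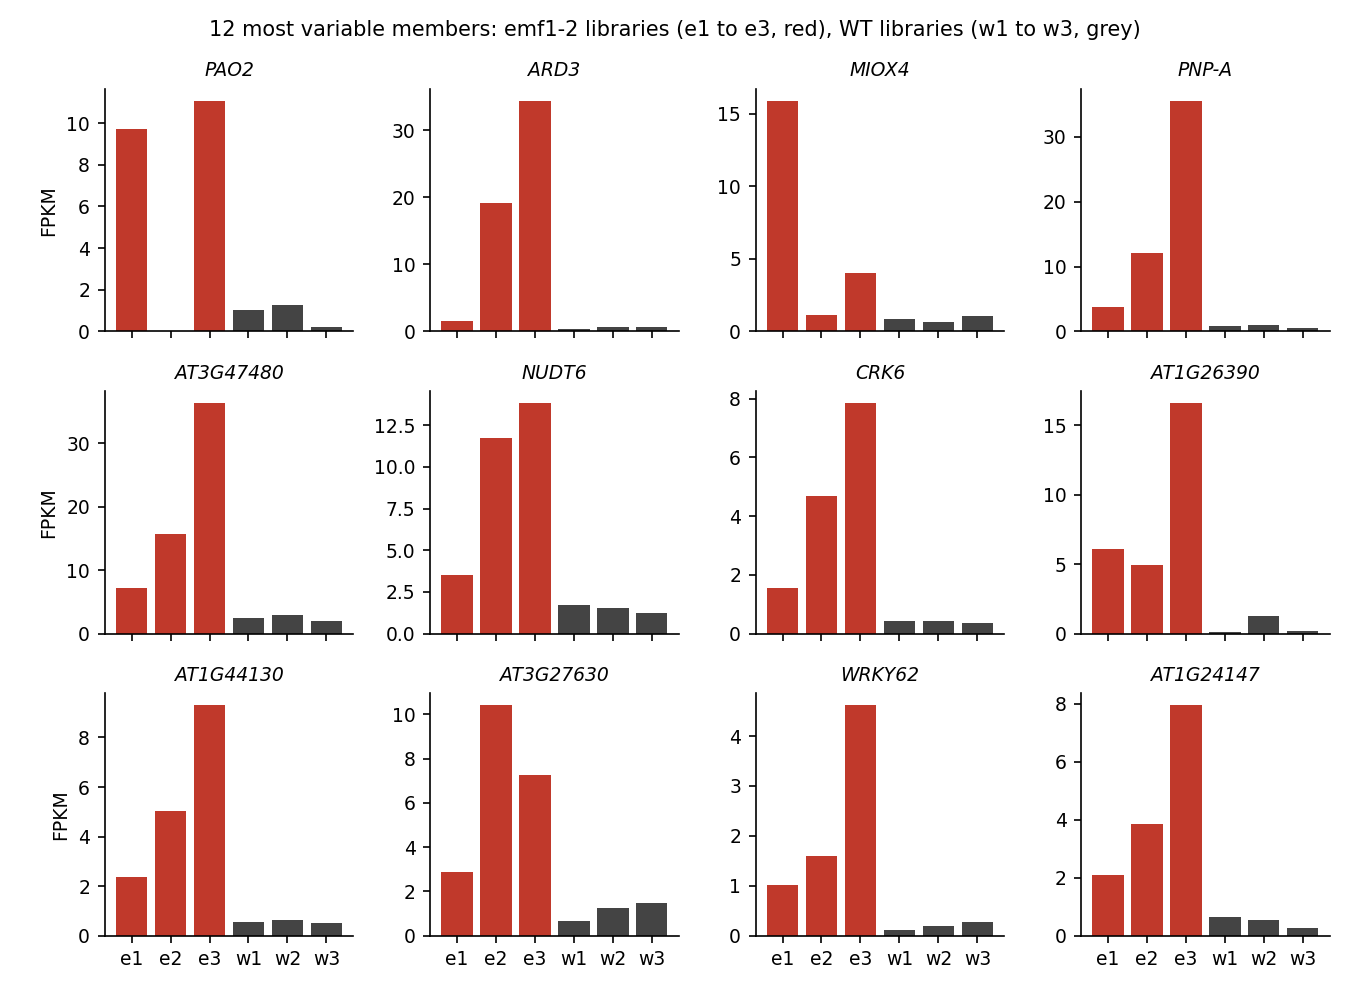
FPKM of the 12 members with the largest SD of log2(FPKM + 1) over the emf1-2 libraries, in the emf1-2 libraries (red bars, e1 to e3 for replicates 1 to 3) and the WT libraries (grey bars, w1 to w3). Each panel has its own vertical axis starting at 0. Replicate 3 is the highest emf1-2 library in PNP-A (35.6 FPKM), ARD3 (34.4 FPKM) and AT3G47480 (36.4 FPKM), and PAO2 has 1 emf1-2 library at 0.00124 FPKM.

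The fixed list of salicylate and defence genes holds no member. By limma, 13.7% of tested genes were called higher and 12.4% lower in emf1-2. Of 12 genes tested on this list, 6 rose and 1 fell in emf1-2, with a median difference of 1.43 beside 0.19 for all tested genes. In clf28swn7 2 rose and 3 fell, beside 15.1% and 12.3% of all tested genes. In ring1ab 1 rose and 2 fell, beside 7.16% and 1.03%. PR1, a marker of salicylate signalling, had 116, 9.31 and 812 FPKM in emf1-2 and 4.59, 19.8 and 0.993 FPKM in WT, a log2 fold change of 4.02 ± 1.3 (SE) with an adjusted p of 0.0165. Its emf1-2 libraries overlapped those of WT, and the order of the replicates differed from that in PNP-A. CYP71A13, of camalexin synthesis, rose by 3.11 ± 0.40 (adjusted p = 3.36e-05), and SID2, the salicylate synthesis enzyme, by 1.61 ± 0.15 (adjusted p = 2.41e-06).

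Of 223 tested genes on all 16 fixed lists, 66 rose and 84 fell in emf1-2, beside the 13.7% and 12.4% of all tested genes. The lists held 2 members, where members were 0.707% of all tested genes, namely MYB57 on the jasmonate list and CYP705A2 on the root triterpene list. On the jasmonate list 7 of 21 genes rose in emf1-2 and 3 fell (median 0.76), led by VSP1 and VSP2 (5.60 and 4.29), and in clf28swn7 8 rose and 3 fell. The rise was widest in ring1ab, where 11 rose and 0 fell (median 1.06), beside 7.16% and 1.03% of all tested genes. CYP705A2 (AT4G15350) had 1.62, 2.33 and 2.32 FPKM in emf1-2 and 0.305, 0.0633 and 0.283 FPKM in WT, whereas its list had 2 of 9 genes called higher and 3 lower (median -0.65). The lists of flower and shoot identity held no member. Among petal, stamen and carpel identity genes 19 of 21 rose in emf1-2 (median 3.90) and 18 rose in clf28swn7, and among KNOX and meristem genes 7 of 11 rose (median 2.39) and 9 in clf28swn7. Embryo maturation and seed storage genes rose in 13 of 16 (median 4.68) and in 16 of 16 in clf28swn7. In ring1ab 13 identity genes, 7 KNOX and meristem genes and 14 embryo and seed genes rose. Floral terpene and scent genes rose in 1 of 2 in emf1-2 (median 2.26), and of the PRC2 and PRC1 subunit genes 2 of 14 rose there (median 0.57), EMF1 and VIN3.

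On the other lists more genes fell than rose in emf1-2, apart from the anther and tapetum list. Leaf photosynthesis genes fell in 19 of 20 (median -3.08), root hair genes in 16 of 17 (median -2.37), xylem and secondary wall genes in 10 of 13 (median -1.799), endodermis and suberin genes in 9 of 19 with 1 higher (median -0.97), and root nitrate and iron transport genes in 6 of 14 with 2 higher (median -0.92). Glucosinolate genes fell in 13 of 19 and rose in 5 (median -1.77), root cap and root tip regulators fell in 3 of 12 and rose in 1 (median -0.08), and of 4 anther and tapetum genes none was called (median -0.44). The lists were chosen with earlier results of these data known. Mesophyll markers summed to between 3106 and 4207 FPKM in emf1-2 and between 24943 and 27764 FPKM in WT, root hair markers to between 4.06 and 5.65 and between 27.7 and 33.4 FPKM, endodermis markers to between 7.86 and 21.2 and between 91.1 and 108 FPKM, and seed markers to between 240 and 593 and between 1.51 and 8.82 FPKM. In clf28swn7 mesophyll markers summed to between 3921 and 4769 FPKM and seed markers to between 25406 and 26765 FPKM. Seed markers summed to between 9615 and 17011 FPKM in ring1ab. The part of tissue makeup in the members' levels was not tested.

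The edges of the list were close. The last members, SFR6 (AT4G04920, a Mediator subunit), AT5G65660 and CYP705A2, had differences of 1.35, 1.34 and 1.34, and the next genes, AT5G57710, AT1G31850 and AT5G55530, had 1.33, 1.33 and 1.31. At the bound, AT3G09405 was inside with a clf28swn7 difference of 0.498, and UMAMIT25, with 4.23, 4.69 and 3.28 FPKM in emf1-2, was outside with 0.501. Of all tested genes 1846 reached the lowest member's difference in emf1-2, so most of the genes that high were left out by the bound. The largest of those were LTP4, AT4G12870 and AP3, with emf1-2 differences of 10.27, 8.61 and 8.14 and clf28swn7 differences of 8.28, 7.20 and 6.82. Within the bound, 313 genes had an emf1-2 difference of at least 1 and 219 one of -1 or below.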

How the data were processed

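The deposited table holds FPKM values per gene and library. The authors checked reads with FastQC, mapped them to TAIR10 with HISAT2 and estimated FPKM with StringTie and ballgown; versions, strand setting and filters are not given in the sources used here, and the methods name a total RNA kit where the labels give polyA RNA. FPKM are not counts, so no count model was used. A gene at exactly 0 is read only as listed at 0. An added 1 before log2 understates the change of low genes.

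limma 3.58.1 (R 4.3.3) was fitted to log2(FPKM + 1) of 21227 genes with FPKM of at least 1 in 3 or more libraries, all 12 libraries in 1 fit without a block. The study's own rule made the calls, namely unadjusted p under 0.05 together with a change of 1 or more on the log2 scale in either direction. Benjamini-Hochberg adjustment ran across the 21227 genes. The fit was tested on simulated data. The remaining steps used Python 3.11.15 with numpy 2.4.6, pandas 2.3.3, Biopython 1.88 and matplotlib 3.10.9.

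Gene names, coordinates, coding sequences and printed sequences came from RefSeq on TAIR10.1; 149 of 150 members and 32835 of 33602 genes matched. Depth was estimated from the FPKM worth of 1 fragment in 8472 single-exon genes. Of 284 listed symbols on 16 fixed lists, 223 genes were tested. Members and lists were chosen with earlier results of these data known; families and W-box were chosen after the members were seen.

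Genes named were the mutated genes, the 20 members with the largest difference, the 5 with the highest emf1-2 FPKM, members on a fixed list, at the edges, next to each other, in families of 3 or more or annotated as transcription factors, and the leading called genes of some lists; MIR776, GulLO1, BSMT1, IAR3, ADPG1, TRE1, AOX1A, KRP2, AT3G27630, BIP3, GEX1, VDD and the variable members were chosen after their values were seen. Alternatives were a pseudocount of 0.1, other filters, adjusted p, WT with 1 mutant alone, trend and robust settings, a replicate block, median-of-ratios scaling, TPM, a bound of 0.25, medians, and leaving out each replicate. The labels do not say whether equal replicate numbers share a culture. Some withheld items are not reported here.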

Additional observations from a re-analysis of the deposited data

How the results depend on the processing

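Membership depends on the pseudocount and the bound. Of the 150 members, 75 were still chosen with a pseudocount of 0.1, where the median difference of the chosen genes was 1.497, and 54 with a bound of 0.25, where it was 1.17. The other alternatives kept between 117 and 149, and leaving out an emf1-2 or WT replicate kept between 132 and 143, with a median difference between 1.65 and 1.77. All alternatives chose 31 of the members, and all that left out a replicate chose 104. Among the 20 leading members no difference changed sign, and 32 of 240 values moved by more than the spread between replicates, but only 3 of the 20 were chosen under every alternative and 13 under every one that left out a replicate.

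Median-of-ratios scaling gave 2284 genes higher and 3146 lower in emf1-2, against 2909 and 2634 on the deposited scale; the members' median difference was then 1.53 and their lowest 1.14. With a pseudocount of 0.1, 397 genes were called lower in ring1ab, against 219. Correlations of deviations between same-numbered libraries of a mutant and WT were low, between -0.14 and 0.04. They cannot tell whether such libraries were grown or prepared together. With the replicate number as a block 2906 genes were higher and 2634 lower in emf1-2. Low FPKM also limits the members, since 79 had a mean WT FPKM under 1.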
